A study of Mus musculus with 2 samples.

Results

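Semaphorins are guidance ligands, and plexins and neuropilins are their receptors. The 31 genes described here are the mouse genes whose symbols name a semaphorin of classes 3 to 7, a plexin or a neuropilin. They were taken by symbol from the 55536 annotated genes of the deposited tables. They comprise 20 semaphorins, 9 plexins and 2 neuropilins.

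Total RNA was sequenced from the left cerebral cortex of male mice 4 days after birth. The strain was B6CASTF1/J, the first-generation cross of C57BL/6 and CAST mice, so every member is present as 1 allele of each parent strain (a single maternal allele for the X-linked genes), and the deposited values do not tell alleles apart. There was 1 group, with 2 libraries called replicate 1 and replicate 2 after the labels, each made from 300 ng of RNA with ribosomal RNA reduced. The labels name a separate tissue sample for each library but give both the same donor identifier, so how far the libraries are independent is not known. With no second condition there is no contrast to test, and differences between the libraries compare those libraries only.

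Semaphorins carry a sema domain that binds the sema domain of a plexin. Class 3 semaphorins are secreted, and most of them need a neuropilin as the binding part of a receptor whose signalling part is a plexin of the A group, while classes 4, 5 and 6 are held in the membrane and class 7 by a lipid anchor. The inner part of a plexin acts on small GTPases of the Ras and Rap families and thereby on actin and adhesion. In the young cortex the family is known for steering axons, including those of the corpus callosum, for orienting dendrites and for limiting spines and synapses.

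The libraries held 26897687 and 29511737 expected counts, the reads that the authors' quantifier assigned to all features. The members held 96840 of these in replicate 1 and 103360 in replicate 2, which was 0.360% and 0.350%. A member had between 68 and 13099 reads in a library. The tissue label was checked on 6 cortical neuron markers, which were all detected and summed to 574 TPM in replicate 1 and 490 TPM in replicate 2. TPM is a level per transcript length, scaled to the same total in every library, and can be compared between genes.

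In these cortices 30 of the 31 members were detected, meaning a TPM of 1 or more in both libraries. The same threshold was met by 59.4% of annotated protein-coding genes and by 28.0% of all annotated genes. The exception was Plxnb3, a plexin of the B group, at 0.85 TPM in replicate 1 and 1.21 TPM in replicate 2, from 86 and 119 reads. The median member stood at 28.5 TPM. The 13084 protein-coding genes that were detected had a median of 17.6 TPM, and 23 of the 31 members lay above it. The 20 semaphorins summed to 562 TPM in replicate 1 and 550 TPM in replicate 2. The 9 plexins summed to 523 and 457 TPM, and the 2 neuropilins to 51.8 and 54.2 TPM. Fewer cells that use a gene and less RNA of it per cell cannot be told apart in such tissue samples.

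**Figure D1:**
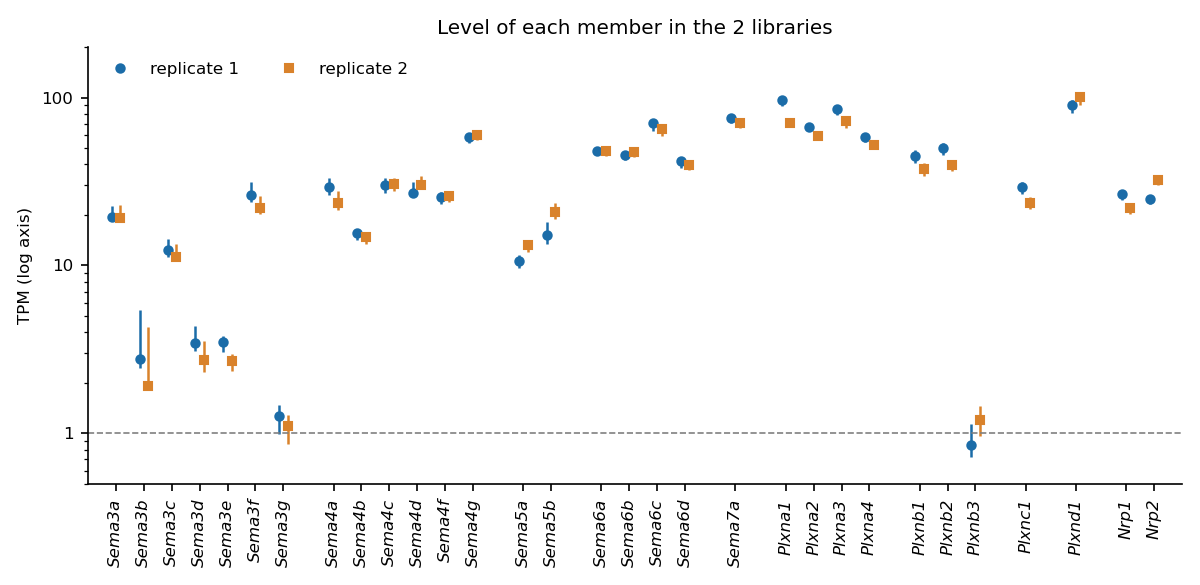
TPM of each member on a log axis, grouped by class, in replicate 1 (circles) and replicate 2 (squares); vertical lines are the authors' deposited TPM intervals for each library and the dashed line marks 1 TPM. Class 3 semaphorins spread from 1.19 to 24.2 TPM on average, while the 4 class 6 semaphorins and the 4 plexins of the A group lie at 39.9 TPM or above in both libraries.

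The secreted class 3 semaphorins were the lowest ligand class per gene, with a median of 3.14 ± 0.544 TPM (SD, n = 2 libraries here and below) over 7 members. Sema3f, which acts through Nrp2 and Plxna3 and limits spines on pyramidal neurons, was at 26.3 TPM in replicate 1 and 22.0 TPM in replicate 2. Sema3a, the collapsin that repels cortical axons and draws apical dendrites toward the pia, was at 19.5 and 19.1 TPM. Sema3c, an attractant for callosal axons, was at 12.3 and 11.3 TPM. By whole-gene TPM these 3 did not overlap one another in the 2 libraries, in the order Sema3f, Sema3a, Sema3c. That order was lost on protein-coding transcripts alone. Sema3f was there at 11.5 and 8.80 TPM, below Sema3a at 18.3 and 18.35 TPM, and it overlapped Sema3c at 11.8 and 10.8 TPM. The other 4 class 3 members lay at or below 3.52 TPM in both libraries by whole-gene TPM. Sema3e, the ligand that binds Plxnd1 without a neuropilin, was at 3.52 and 2.70 TPM, and Sema3d, a relative known from cardiovascular development, at 3.44 and 2.75 TPM. Sema3b was at 2.79 and 1.91 TPM, and Sema3g, which is known from endothelium, was lowest at 1.27 and 1.10 TPM. The values of Sema3e, Sema3d and Sema3b cannot be put in order, because each overlapped its neighbour.

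Class 4 semaphorins are membrane proteins, several of which bind plexins of the B group. Their 6 members had a median of 28.0 ± 0.138 TPM. Sema4g led with 57.9 TPM in replicate 1 and 60.0 TPM in replicate 2, which overlapped Plxna4. Sema4c, a ligand of Plxnb2, was at 30.2 and 30.5 TPM, and Sema4d, the ligand of Plxnb1 that promotes inhibitory synapses, at 26.9 and 29.99 TPM. Sema4a stood at 29.2 and 23.4 TPM and Sema4f at 25.7 and 25.8 TPM. Sema4b was the lowest of the class at 15.7 and 14.9 TPM. Apart from Sema4g at the top and Sema4b at the bottom, this class lay between 23.4 and 30.5 TPM.

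The class 5 semaphorins, which add thrombospondin repeats to the sema domain, were low for membrane ligands. Sema5a, a ligand of Plxna2 that limits synapse number on dentate granule cells, was at 10.6 TPM in replicate 1 and 13.2 TPM in replicate 2. Sema5b was at 15.2 and 20.9 TPM. Both were higher in replicate 2, and the spread of Sema5b between libraries (SD of 4.02 TPM) made it overlap Sema3a and Sema4b.

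Class 6 semaphorins are transmembrane ligands of A-group plexins and can also signal inward. All 4 were in the upper part of the list. Sema6c was at 70.4 TPM in replicate 1 and 65.3 TPM in replicate 2. Sema6a, a partner of Plxna2 and Plxna4 in axon and lamina formation, was at 48.2 and 47.8 TPM, and Sema6b at 45.5 and 47.1 TPM. Sema6d, a ligand of Plxna1, was at 41.7 and 39.9 TPM. Their sum, 203 ± 3.98 TPM, was the highest of the ligand classes, ahead of 185 ± 0.771 TPM for class 4, and the sums of these classes did not overlap in the 2 libraries. In the other quantification they did overlap, at 291 and 300 TPM for class 6 and 302 and 297 TPM for class 4.

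Sema7a, the only class 7 gene, encodes a ligand anchored by a lipid that acts on Plxnc1 and on integrins containing beta 1. It was at 75.4 TPM in replicate 1 and 70.4 TPM in replicate 2, above 88.1% of detected protein-coding genes. It was the highest semaphorin by its mean, but its values overlapped those of Sema6c. The gene lies at chr9:57940112-57962865 on the plus strand (mm10).

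Among the receptors, the A-group plexins carried most of the plexin RNA, with a sum of 307 TPM in replicate 1 and 255 TPM in replicate 2. Plxna1 was at 96.4 TPM in replicate 1 and 70.9 TPM in replicate 2, the widest gap in TPM of any member. Plxna3, the signalling partner of Nrp2 for Sema3f, was at 85.9 and 72.1 TPM. Plxna2 was at 67.0 and 59.4 TPM, and Plxna4, the main partner of Nrp1 for Sema3a in many neurons, at 58.1 and 52.5 TPM. All 4 were lower in replicate 2. Plxna1 and Plxna3 overlapped each other, as did Plxna2 with both Sema6c and Sema4g.

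Plxnd1, a receptor of Sema3e that is used in vessels and in callosal projection neurons, had the highest mean of the 31 genes, with 90.7 TPM in replicate 1 and 101 TPM in replicate 2. It overlapped Plxna1, which had the higher mean in the other quantification, at 117 TPM against 114 TPM. Plxnd1 lies at chr6:115954811-115995005 on the minus strand. Plxnb2, which is prominent in neural progenitors, was at 50.2 and 39.8 TPM and Plxnb1 at 44.97 and 37.5 TPM, and the 2 overlapped. Plxnc1, the receptor of Sema7a, was lower at 29.2 and 23.7 TPM. In the whole order of 31 levels, only 7 of the 30 neighbouring pairs did not overlap in the 2 libraries.

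The neuropilins, which bind both class 3 semaphorins and VEGF, were of like level. Nrp1 was at 26.8 TPM in replicate 1 and 21.9 TPM in replicate 2, and Nrp2 at 24.96 and 32.3 TPM. Nrp1 was therefore the higher of the pair in replicate 1 and the lower in replicate 2, and whole-gene TPM does not set their order. On protein-coding transcripts alone, Nrp2 was higher in both libraries. It was there at 22.95 and 29.8 TPM, against 21.5 and 17.9 TPM for Nrp1.

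The order changed when only transcripts of the protein-coding class were summed, a view that was chosen after seeing the data. The annotation holds 226 transcripts for the 31 genes, of which 100 are protein-coding and 76 are retained-intron models, many of them short fragments. A short model takes a high TPM from few reads. Protein-coding transcripts held a median of 80.4% of the TPM of the 28 detected members with any other class, and 80.5% over the 10311 detected protein-coding genes of that kind. By reads in place of TPM, the median over all 31 members was 94.4%.

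Plxna3 was the clearest case. Its full-length coding transcript, Plxna3-201 of 6943 bases, was at 35.1 TPM in replicate 1 and 29.3 TPM in replicate 2, which was 40.8% of the gene's TPM but 82.8% of its reads. Retained-intron models took 58.5 ± 0.107% of the TPM. On coding transcripts alone Plxna3 averaged 32.2 ± 4.10 TPM and overlapped Plxnb1 and Sema6c rather than Plxna1. The coding sum of Plxnb1 includes short models of 140 codons, Plxnb1-202 and Plxnb1-203. Its longest coding transcript, Plxnb1-201, was at 24.1 TPM in replicate 1 and 22.5 TPM in replicate 2, below Plxna3-201.

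Plxnd1 was affected less. Its coding transcripts were at 65.3 TPM in replicate 1 and 65.6 TPM in replicate 2. In gene-table TPM, its higher whole-gene value in replicate 2 lay on retained-intron models. One of these, Plxnd1-204 of 442 bases, was given 18.5 and 24.1 TPM from 108 and 159 reads. The other quantification gave that model 0 and 4.53 TPM. It put the coding Plxnd1-201 at 90.3 TPM in replicate 1 and 93.9 TPM in replicate 2, so where the rise lay depended on the quantifier. Of the gene's 7722 and 8853 reads, 7564 and 8604 were assigned to Plxnd1-201 in the gene-table quantification.

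Sema6c, Sema3f and Sema3b were the other members with under 50% of their gene-table TPM on coding transcripts. In the other quantification their coding shares were 55.5%, 50.3% and 53.6%, and by reads 67.5%, 62.0% and 26.4%. By gene-table TPM Sema6c had 46.3 ± 4.45%, so its coding level was 31.3 ± 1.36 TPM. Sema3f had 41.9 ± 2.74%, with a coding level of 10.2 ± 1.93 TPM, and 26.6 ± 2.05% of its TPM lay on models of the nonsense-mediated decay class. Sema3b had 24.5 ± 27.1% from at most 77 reads in a library, and its leading transcript by the mean of both libraries, Sema3b-206, was itself of the decay class. By that mean it was the only member without a protein-coding leader, but Sema3b-206 led in neither library alone: Sema3b-208, a retained-intron model, led in replicate 1 and the coding Sema3b-204 in replicate 2. In the other quantification Sema4c was also led by a retained-intron model, Sema4c-206, at 34.1%. Sema7a, Sema6b and Sema3g had 99% or more of their TPM on coding transcripts.

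On coding transcripts the highest levels were Plxna1 at 85.7 TPM in replicate 1 and 70.5 TPM in replicate 2, Sema7a at 74.7 and 69.9 TPM, and Plxnd1. Plxna2 followed at 57.5 and 52.5 TPM and Plxna4 at 55.5 and 50.3 TPM. Plxna1 and Sema7a overlapped on this scale, Plxnd1 lay below both, and 11 of 30 neighbouring pairs did not overlap. Sema3b and Plxnb3 fell below 1 TPM, leaving 29 members detected on this scale.

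**Figure D2:**
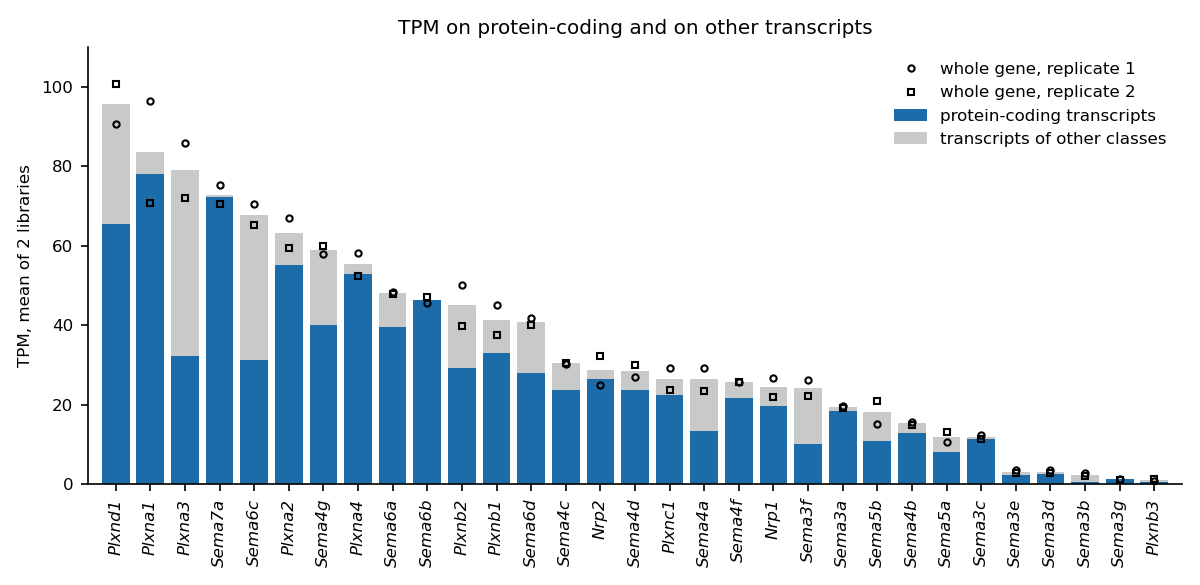
Mean TPM of each member, split into protein-coding transcripts (blue) and transcripts of other classes (grey); open circles and squares give the whole gene in replicate 1 and replicate 2. The coding part is 40.8% of the bar for Plxna3 and 46.3% for Sema6c, while Sema7a and Sema6b have almost no grey.

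Nrp2 showed how the receptor's forms were mixed. The gene at chr1:62703285-62818695 (plus strand, mm10) has 6 protein-coding transcripts with 2 alternative endings, known as forms a and b, which differ in the membrane span and inner tail. Form a is known to close with a motif bound by PDZ proteins such as Gipc1, and form b lacks it. The last 60 coding bases of each ending, with the last 3 codons before the stop in capitals, lie at chr1:62815575-62815634 and chr1:62795927-62795986.
Nrp2 ending a: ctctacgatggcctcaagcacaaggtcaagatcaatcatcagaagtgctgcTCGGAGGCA
Nrp2 ending b: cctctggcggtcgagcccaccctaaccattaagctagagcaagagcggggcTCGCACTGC

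Ending a carried most of the coding TPM of Nrp2. Its share was 69.9% in replicate 1 and 71.4% in replicate 2, and ending b had 30.1% and 28.6%. The other quantification gave ending a 69.7% and 72.1%. In levels this was 18.6 ± 3.68 TPM for ending a and 7.71 ± 1.13 TPM for ending b, and the endings did not overlap in either quantification.

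Inside the coding sequence, 2 further choices change the stretch before the membrane. An exon of 51 bases at chr1:62812534-62812584 is present only in transcripts with ending a. An exon at chr1:62786281-62786316 exists with or without its last 15 bases, shown in capitals.
Nrp2 51-base exon: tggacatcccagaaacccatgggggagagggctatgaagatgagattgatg
Nrp2 15-base extension: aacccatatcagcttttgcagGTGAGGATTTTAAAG

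The 51-base exon was in 21.002% of the coding TPM in replicate 1 and 26.9% in replicate 2. The 15-base extension was in 9.02% and 18.7%. Both shares were higher in replicate 2, where Nrp2 as a whole was higher too. The lengths in the annotation follow from these choices: 909, 914, 926 and 931 codons for ending a, and 901 and 906 codons for ending b. The leading transcript was Nrp2-204, the form with ending a, 909 codons and neither insert, at 9.87 TPM in replicate 1 and 9.58 TPM in replicate 2. The gain of Nrp2 in replicate 2 lay mostly on Nrp2-202, with the 51-base exon, at 4.10 and 7.49 TPM, and on Nrp2-203, with the 15-base extension, at 1.35 and 3.67 TPM.

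Sema6d, at chr2:124089969-124667770 on the plus strand, split its RNA over several starts and inner exons. The transcript from the farthest upstream start, Sema6d-208, was at 10.5 TPM in replicate 1 and 13.5 TPM in replicate 2. It held 40.9% and 44.9% of the coding TPM. A second group of starts, 520327 bases or more downstream, held 55.4% and 48.4%, and the last start 3.70% and 6.72%. The other quantification gave the last start 14.2% and 16.4%, so its share depended on the quantifier. The 2 larger shares did not overlap in either quantification.

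Sema6d transcripts differ further by a 57-base exon at chr2:124660705-124660761 and a 39-base extension at chr2:124660244-124660282, whose sequences are given whole because both keep the reading frame.
Sema6d 57-base exon: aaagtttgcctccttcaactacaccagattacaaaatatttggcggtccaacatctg
Sema6d 39-base extension: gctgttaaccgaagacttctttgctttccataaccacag

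The 57-base exon was in 38.1% of the Sema6d coding TPM in replicate 1 and 39.2% in replicate 2. The 39-base extension was in 13.7% and 14.2%. The other quantification gave 32.7% and 43.1% for the exon and 19.7% and 20.1% for the extension. The exon was therefore the more frequent of these inserts in both quantifications, and its share varied more between libraries in the second.

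**Figure D3:**
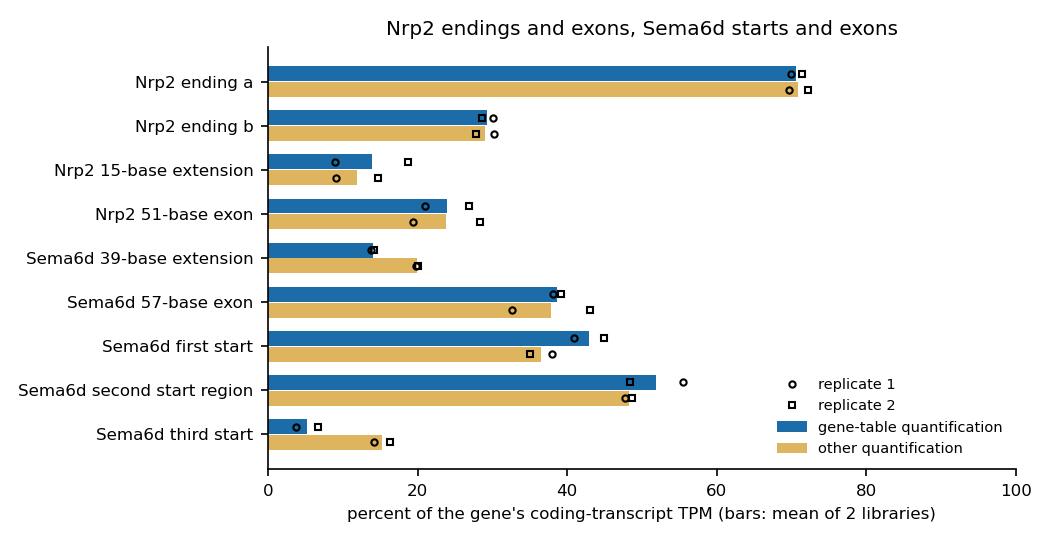
Percent of the coding-transcript TPM of Nrp2 or Sema6d that carries each ending, exon or start; bars are means of the 2 libraries in the gene-table quantification (blue) and the other quantification (sand), with circles for replicate 1 and squares for replicate 2. Ending a of Nrp2 is near 70% in both quantifications, while the third start of Sema6d differs between them.

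Over all members, the leading transcript was the same in both quantifications for 28 of 31 genes and the same in both libraries for 29. It held 80% or more of the gene's TPM in 11 genes, among them Plxna1, Plxna4, Sema7a and Sema6b. It held under 50% in 12, among them Nrp2, Plxna3, Sema6a and Sema6d. Sema4d was one of the 3 whose leader changed with the quantifier. Its full transcript Sema4d-201, of 861 codons, was at 10.3 TPM in replicate 1 and 13.2 TPM in replicate 2. A model of 185 codons, Sema4d-204, was at 9.55 and 11.1 TPM and led in the other quantification.

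Levels of a ligand and of a receptor it is known to bind were compared within each library, as the log2 of the ligand's TPM over the receptor's TPM with 0.1 added to each. The 14 pairs are a chosen list, not every known pair, so counts over it describe these pairs only. Some receptors are repeated in it, and Sema4g, Sema6b and Sema6c are in no pair. In 12 of the 14 listed pairs the receptor gene was the higher in both libraries. Sema7a over Plxnc1 was the only listed pair with the ligand higher in both, at 1.37 in replicate 1 and 1.57 in replicate 2. Sema3f over Nrp2 changed sign, at 0.08 and -0.55.

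The widest gap was that of Sema3e below Plxnd1, at -4.65 and -5.17. Sema5a over Plxna2 was at -2.65 and -2.16, and Sema5b over Plxna3 at -2.49 and -1.78. Sema3a was closer to its binding receptor Nrp1, at -0.45 and -0.20, than to its signalling receptor Plxna4, at -1.57 and -1.45. Sema3f likewise lay well below its signalling receptor Plxna3, at -1.70 and -1.71.

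The remaining membrane ligands of the list differed in their distance from their receptors. Sema6d over Plxna1 was at -1.21 and -0.83, Sema6a over Plxna2 at -0.47 and -0.31, and Sema3c, a secreted ligand, over Nrp1 at -1.12 and -0.95. Sema6a over Plxna4 was at -0.27 and -0.13, Sema4d over Plxnb1 at -0.74 and -0.32, and Sema4c over Plxnb2 at -0.73 and -0.38. This last ratio turned to 0.45 on average in the other quantification, where Sema4c was 2.17 times and Plxnb2 1.08 times as high as in the gene table, against a median of 1.44 over the members. On coding transcripts alone, Sema3f lay below Nrp2 in both libraries, at -0.99 and -1.75, and Sema3a over Nrp1 changed sign, at -0.23 and 0.03. RNA of a ligand and of its receptor need not come from the same or neighbouring cells, which tissue samples do not resolve.

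**Figure D4:**
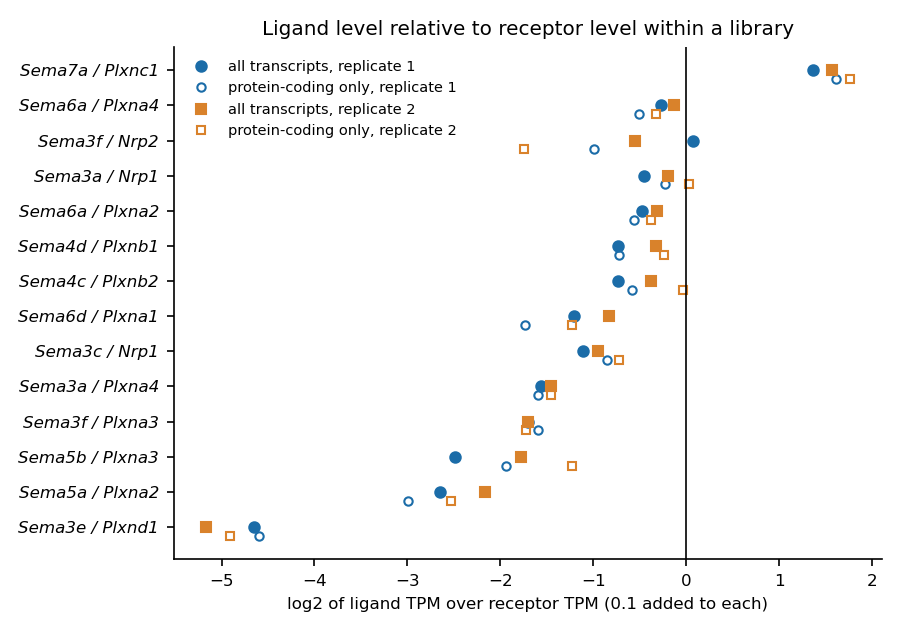
Log2 of ligand TPM over receptor TPM for 14 known pairs in replicate 1 (circles) and replicate 2 (squares), over all transcripts (filled) and over protein-coding transcripts (open); the line at 0 marks equal levels. Sema7a over Plxnc1 lies to the right of 0 in both libraries on both scales, and Sema3e over Plxnd1 lies farthest to the left.

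Partners around the receptors were taken from 4 lists of genes of the pathway. Of 15 co-receptors and further binding partners, 13 were detected, with a median of 30.7 ± 5.54 TPM. The highest were the adhesion molecules L1cam, a partner of Nrp1, at 259 and 251 TPM, Chl1 at 259 and 236 TPM, and Ptprz1, a receptor phosphatase, at 165 and 159 TPM. The lowest detected was Trem2, a microglial receptor, at 1.37 and 1.36 TPM. The co-receptors that led the list were thus higher than any plexin or neuropilin.

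All 26 plexin effectors were detected, with a median of 36.6 ± 0.799 TPM. The actin-severing protein Cfl1 led with 1113 and 1150 TPM, then the GTPase Rac1 with 210 and 213 TPM and the guanine exchange factor Farp1 with 129 and 121 TPM. The lowest was Sh3bp1 at 3.02 and 2.32 TPM. The 10 collapsin response mediators and their kinases were all detected at a median of 163 ± 1.85 TPM. Dpysl3 was at 1091 and 1054 TPM, Crmp1 at 783 and 766 TPM and Dpysl2, the mediator through which the response to collapsin was first described, at 748 and 743 TPM. The lowest of that list was the kinase Dyrk2 at 48.4 and 47.7 TPM.

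The 16 ligand-processing genes and VEGF partners were lower, with a median of 10.8 ± 1.16 TPM. Cspg5 was at 210 and 241 TPM, the proteoglycan Vcan at 76.7 and 61.4 TPM and the shedding protease Adam10 at 52.4 and 44.6 TPM. Acan, a proteoglycan of perineuronal nets, was the lowest at 1.27 and 1.53 TPM.

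Differences between the libraries were measured on expected counts as replicate 2 over replicate 1. With the two-sided exact binomial test and Benjamini-Hochberg adjustment over 20385 genes, 0 of 31 members were called at an adjusted p under 0.05 with a 1.5-fold difference. Of all tested genes 5.57% were called, 1.75% higher and 3.82% lower in replicate 2. With no minimum fold, 18 members passed the adjusted p, 9 higher and 9 lower in replicate 2, where 26.7% of tested genes (13.9% higher and 12.8% lower) and 33.5% of detected protein-coding genes passed. At an unadjusted p under 0.05 there were 23, where 35.4% of tested genes and 43.0% of detected protein-coding genes passed. The test sees small differences where a gene has many reads, and these shares were not matched for read depth. It measures counting error only, not the spread between animals. The median size of the difference was 0.13 on the log2 scale, against 0.13 for detected protein-coding genes and 0.18 for all genes tested.

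The members that were higher in replicate 2 were led by Sema5b. It had 803 reads in replicate 1 and 1262 in replicate 2, a log2 ratio of 0.55 ± 0.07 (counting SE; exact binomial adjusted p = 1.21e-15). Nrp2 had 2626 and 3775 reads and a ratio of 0.42 ± 0.04 (exact binomial adjusted p = 2.04e-28). Sema5a, with 1491 and 2073 reads, was at 0.37 ± 0.05, and Sema4d, with 1121 and 1512 reads, at 0.33 ± 0.06. Both class 5 semaphorins were thus among the 4 members with the largest rise that passed the adjusted p. Sema5b came to 0.60 in the other quantification and was called there.

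Members lower in replicate 2 included Sema3d, with 327 and 262 reads and a ratio of -0.42 ± 0.12. Plxna1, with 13099 and 12128 reads, was at -0.22 ± 0.02 (exact binomial adjusted p = 2.65e-30), and Nrp1, with 1543 and 1433 reads, at -0.21 ± 0.05. Nrp1 and Nrp2 therefore passed the adjusted p in opposite directions. Plxnb2 and Plxna3 were at -0.21 and -0.20. Plxnb3, Sema3b and Sema3g had at most 119 reads in a library, and their ratios of 0.36, 0.07 and -0.13 had counting errors of 0.20 or more.

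TPM and counts gave different signs for 6 members, all with higher counts and lower TPM in replicate 2. The largest of these gaps was that of Sema3b, at -0.55 in TPM and 0.07 in counts, and Sema6d was at -0.06 and 0.20.

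Several marker lists of other tissues and cell types also differed between the libraries. The 3 markers of olfactory bulb output neurons summed to 7.45 TPM in replicate 1 and 37.3 TPM in replicate 2, and all 3 (Cdhr1, Eomes and Tbx21) were called higher. The 5 striatum markers summed to 65.7 and 102 TPM, with 3 called higher (Ppp1r1b, Drd2 and Adora2a), and the 4 interneuron markers to 220 and 295 TPM, with 3 called higher (Gad1, Gad2 and Dlx1). Choroid plexus markers went from 1.83 to 33.97 TPM, nearly all of it Ttr. The 2 blood markers, Hbb-bs and Hba-a1, went from 146 to 302 TPM, and both were called higher. No marker of these lists was at 0 in either library.

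The 6 cortical neuron markers had 0 called. The 4 endothelial markers summed to 72.8 and 62.7 TPM and the 3 meningeal ones to 52.99 and 41.9 TPM, with 0 called. Microglial, astrocyte, mural and precursor markers had 0 called as well. In the pathway lists only Acan was called, with a log2 ratio of 0.68. The part of these other tissues and cell types in the ratios of Sema5b, Nrp2, Sema5a and Plxna1 was not tested.

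**Figure D5:**
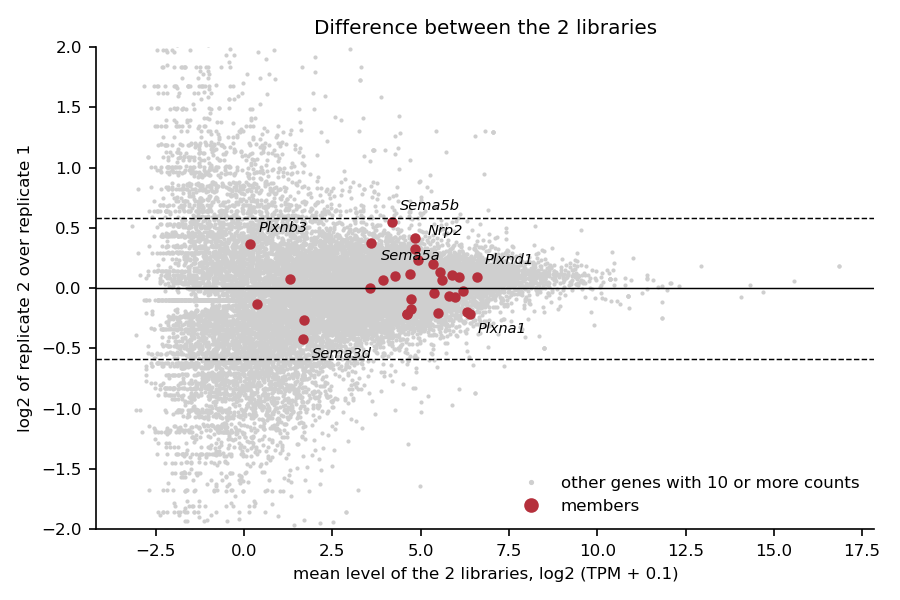
Log2 of replicate 2 over replicate 1 in expected counts against the mean level as log2 (TPM + 0.1); red points are the 31 members, grey points the other genes with 10 or more counts, and dashed lines mark 1.5-fold. Every member lies inside the 1.5-fold lines, with Sema5b nearest to the upper one; other genes beyond 2 on the vertical axis are outside the plot.

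The promoters were compared over the 250 bases before each annotated start. RefSeq (GRCm38.p6) gave 37 such windows for 26 of the 31 members. The GC box, GGGCGG on either strand, was found in 27 of the 37, or 73.0%. It was found in 32.7% of all 32851 windows and in 57.8% of the 13123 windows of detected protein-coding genes. The TATA box, TATAAA on either strand, was found in 0 of 37, against 12.4% and 6.17%. The CCAAT box on either strand was in 7 of 37, or 18.9%, against 33.8% and 35.2%. Windows of 1 gene can overlap, so the 37 are not independent, and a match to these letters is not a bound site.

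The windows of the highest semaphorin and of the member with the highest mean level in the gene table show these features, with GC boxes in capitals. They lie at chr9:57939862-57940111 on the plus strand and chr6:115995006-115995255 on the minus strand.
Sema7a promoter: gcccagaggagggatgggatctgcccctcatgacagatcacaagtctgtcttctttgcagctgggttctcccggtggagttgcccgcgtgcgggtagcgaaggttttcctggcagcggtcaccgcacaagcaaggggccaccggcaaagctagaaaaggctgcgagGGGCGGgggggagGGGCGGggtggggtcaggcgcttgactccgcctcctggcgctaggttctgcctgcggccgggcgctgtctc
Plxnd1 promoter: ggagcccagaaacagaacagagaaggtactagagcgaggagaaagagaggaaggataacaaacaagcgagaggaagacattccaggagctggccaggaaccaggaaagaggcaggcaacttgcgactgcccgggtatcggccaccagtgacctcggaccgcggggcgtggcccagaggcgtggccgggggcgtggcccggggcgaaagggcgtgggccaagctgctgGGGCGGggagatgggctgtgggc

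The Sema7a window has 2 GC boxes and 66.4% G or C, and that of Plxnd1 has 1 GC box and 64.8%. The windows with the most GC boxes were those of Nrp2 and Sema5a, with 5 each. Windows without a GC box ran from 40.8% G or C, for Sema3a, to 72%, for Sema5b, with Sema3d at 46.8%. The Sema3a window lies before the start of Sema3a-202, not before that of its leading transcript, Sema3a-201. Over the 37 windows the median was 64% G or C, against 60% for detected protein-coding genes and 52.4% for all. The observed number of CG pairs over that expected from the C and G content went the other way against detected genes. Its median was 0.536 for the members, 0.717 for detected protein-coding genes and 0.373 for all.

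Reads of some members could be shared with other genes. The share of a member's 31-base words that also occur in another gene was under 1% for 23 of 31 members. It was highest for Plxna1, at 8.57%, nearly all with the antisense gene Gm26811, which was listed at 0 in both libraries. It was next highest for Sema4c, at 6.45% with the opposite-strand gene D430040D24Rik, which had 46 and 51 reads beside 1371 and 1737 for Sema4c. Genes on the opposite strand overlapped 12 members, and whether counting used strand is not given in the sources used here. Counts were whole numbers (within 0.005) for 29 members and not for Plxnc1 and Sema3a, whose reads were partly shared out.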

How the data were processed

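The libraries held total RNA with ERCC spike-ins. For the aligner, quantifiers and strand setting, names are not given in the sources. The assembly is mm10, per the labels. The authors deposited a gene table and a transcript table with expected counts and TPM, the bounds of a TPM interval, and each transcript's percent of its gene, per the file headers. A second deposited table, called the other quantification, gives TPM and estimated counts of transcripts. Values rest on the mm10 sequence, and the effect of CAST sequence on mapping was not tested.

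Members were found by symbol, joined to the gene table by identifier, and placed by GENCODE M21. The members and gene lists were chosen with earlier results of these data known. All members may be named, as may of each pathway list the 3 highest and the lowest detected genes, of each marker list the 2 highest, and any gene called. Levels are means ± SD over 2 libraries. Expected counts were rounded, scaled by TMM (edgeR 4.0.16 in R 4.3.3) and compared by a two-sided exact binomial test (scipy 1.17.1) with Benjamini-Hochberg adjustment over genes with 10 or more counts in all, and log2 ratios used a prior count of 0.5. The test was checked on simulated data. Alternatives were DESeq2 1.42.0 size factors, total scaling, other minimums and folds, posterior mean TPM, the other quantification, TPM rescaled over nuclear protein-coding genes, and each library alone. SEs cover counting error only. The deposited TPM intervals need not hold the TPM beside them: Plxna4 in replicate 1 was at 58.06 TPM, with bounds of 54.7 and 57.0 TPM. FPKM was not used. Some marker genes are not reported here.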

Additional observations from a re-analysis of the deposited data

How the results depend on the processing

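No paired analysis was possible because the series has 1 group. The count of detected members, 30, ranged from 28 (a TPM of 2) to 31 over its alternatives, and that of coding leading transcripts, 30, from 29 to 31. The median level of 28.5 TPM was 27.8 by posterior mean TPM, 41.4 in the other quantification and 23.5 on coding transcripts (chosen after seeing the data), and 29.2 to 29.99 with either library left out. Members called between the libraries, 0, became 1 (Sema5b) in the other quantification and 18 with no fold, and stayed 0 with DESeq2 size factors, total scaling, other minimums and a fold of 2. Pairs with the ligand higher, 1, became 2 in the other quantification and 1 to 2 with a library left out. Directions turned for Sema3c (0.0182 with DESeq2 size factors and 0.0205 in the other quantification), Plxnb1 (0.0185) and Sema7a (0.0109) in the other quantification, all near 0, and for Sema4c over Plxnb2 (0.45) there; the cause was not tested. Depth limits Plxnb3, Sema3b and Sema3g, with 68 to 119 reads.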
